A study of Mus musculus with 6 samples.

Results

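The mitochondrial ribosomal proteins are the proteins of the ribosome inside mitochondria, and their genes were followed here in mouse embryonic stem (ES) cells. Members were all genes whose single symbol in the array's probe-to-gene table starts with Mrpl or Mrps followed by a number. The rule gave 76 genes, 47 with an Mrpl symbol (large subunit) and 29 with an Mrps symbol (small subunit), of 18193 genes with a probe set of their own. They are covered by 156 probe sets, a probe set being the group of array probes that is summarized into 1 value, and 42 members have more than 1. Where a gene had several, the one brightest on average across the 6 arrays was used. The reference gene table lists 78 protein-coding genes with such symbols. The 2 missing ones, Mrpl30 and Mrpl53, are reported only by probe sets that carry several symbols, and were left out.

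Expression was measured on Affymetrix arrays, 1 per culture. The induced group held 3 cultures, grown for 24 h without tetracycline, and the uninduced group 3 cultures kept in tetracycline (0 h), 1 of each from the clones A3, A4 and A5. All 6 cultures carry the same insert, a human GTF2IRD2 coding sequence with a FLAG tag behind a tetracycline-repressible (tet-off) promoter, placed in the ES cell line EBRTcH3 by the ROSA-TET system, and all were grown with leukemia inhibitory factor. GTF2IRD2 encodes a TFII-I-type transcription factor lost in some people with Williams-Beuren syndrome. The design asks which mouse genes differ when this transgene is switched on. The induced cultures also lacked tetracycline, and they were taken at 24 h, against 0 h for the uninduced ones. Induced minus uninduced differences, called induction below, therefore take in the transgene, the removal of tetracycline and time together. These arrays cannot tell them apart, and the part of each was not tested. Each line is 1 clone, no line without the transgene was analysed here, and the only spread that p-values take in is that among these 6 cultures.

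The mitochondrial ribosome translates the few messages of the mitochondrial genome, which encode core subunits of the respiratory chain and of ATP synthase. Its ribosomal RNAs come from the mitochondrial genome, whereas all its proteins are encoded in the nucleus, made in the cytosol and imported. The small subunit holds the decoding centre and the large subunit the peptidyl transferase centre and the exit tunnel, which faces the inner membrane. Compared with its bacterial relatives this ribosome has lost rRNA and gained proteins that exist only in mitochondria. The genes are housekeeping genes, many with CpG-rich promoters read by ETS-family factors such as GABP and by NRF1.

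Array medians ran from 5.03 to 5.06 (log2 RMA, the normalized log2 signal of a probe set) and pairwise correlations from 0.996 to 0.998. Of 12 ES cell markers 11 were measured, at 9.83 to 13.88, among them Pou5f1, Sox2 and Nanog. The 8 fibroblast and feeder markers lay at 2.56 to 6.50, the 6 primitive endoderm markers at 4.02 to 5.10 and the 6 trophoblast markers at 3.92 to 8.95, the highest being Tfap2c. Poly-A spikes, control transcripts put into each RNA sample ahead of labelling, gave induced minus uninduced differences of 0.24 (A3), 0.05 (A4) and 0.34 (A5), and hybridisation spikes of 0.03, 0.02 and 0.21. In bulk RNA, fewer cells of a type and less RNA per cell cannot be told apart.

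Several sequence features, which the rule did not use, were commoner in the upstream regions of the members than in those of all genes. RefSeq (GRCm38.p6) gave a 250-base window before the start for 67 of the 76 members and for 27025 genes in all, and motifs were searched on both strands. The ETS motif CCGGAAG stood in 16 member windows (23.9%, against 7.05% of all windows), the NRF1 motif GCGCNNGCGC in 9 (13.4%, against 5.09%) and the YY1 motif AAGATGG in 6 (8.96%, against 4.53%). The GC box GGGCGG stood in 49.3% (32.9% of all), CCAAT in 35.8% (34.5%), the E-box CACGTG in 7.46% (6.05%), the CREB motif TGACGTCA in 2.99% (1.62%) and the TATA box TATAAA in 5.97% (13% of all). Median GC content was 58.4% in member windows and 52% in all, with a median of 17 CpG dinucleotides against 6. All genes with a window were the only background, and no set matched in CpG content or in level was used. The ETS and YY1 motifs can share the letters AAG, each motif was searched on its own, and a match is a description of sequence, not evidence that a factor binds. Of the 67 members, 25 (37.3%, against 11.4% of all genes) start within 1000 bases of a gene read the other way, an arrangement called head to head. Some of these partners also serve mitochondria, namely Twnk, the replicative helicase, beside Mrpl43, Sars2, the mitochondrial seryl-tRNA synthetase, beside Mrps12, Ndufb5, a complex I subunit, beside Mrpl47, and Ptcd2 beside Mrps27. Mrpl46 and Mrps11 are each other's partner, with 42 bases between their starts.

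The window of Mrpl18 is printed because this member is the only one that passed a test below, and because it lies between Mrpl18 and its head-to-head partner Tcp1, whose start is 238 bases away, so that the first 13 bases printed belong to Tcp1. Short windows follow for Mrpl51 and Mrpl17, which are among the 4 members with the highest levels in the large subunit, for Mrps16, which is among those 4 in the small subunit, and for Mrps22 and Mrpl58, described with the induction. They were taken only from members with an ETS match, 16 of 67. Of the other members with the highest levels, Mrpl42, Mrps14 and Mrps18b had no ETS match, and Mrpl15 and Mrps34 had no window. Several members described with the induction, such as Mrpl33, Mrps25 and Mrpl9, had no match either. Capitals mark the ETS motif on either strand and, in the Mrpl18 window, also CCAAT on the other strand.
Mrpl18 upstream, chr17:12916092-12916341, minus strand: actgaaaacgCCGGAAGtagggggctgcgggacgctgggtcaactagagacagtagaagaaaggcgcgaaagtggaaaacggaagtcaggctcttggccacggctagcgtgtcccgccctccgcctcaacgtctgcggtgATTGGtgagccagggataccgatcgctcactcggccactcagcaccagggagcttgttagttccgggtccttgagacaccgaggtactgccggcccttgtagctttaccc
Mrpl51, chr6:125192099-125192128, plus strand: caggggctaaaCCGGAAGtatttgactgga
Mrpl17, chr7:105811306-105811335, minus strand: gcatgctccgcCCGGAAGgcgcctcctcca
Mrps16, chr14:20393546-20393575, minus strand: ttgggggcgctCTTCCGGgcttcaggctct
Mrps22, chr9:98601680-98601709, minus strand: tgcacaaaaacctctcgagCCGGAAGttgc
Mrpl58, chr11:115403722-115403751, plus strand: ggctggcggaccgCCGGAAGagtgagcacc
The ETS match of Mrpl18 begins at base 11 of its window, across the start of Tcp1, and the window holds 1 CCAAT box.

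All 76 members, each by its brightest probe set, lay above the upper quartile of all probe sets in every array (7.29 to 7.32). The 2 sides are unlike, since the quartile also counts the dimmer probe sets of genes. Taken by the brightest probe set, 5381 of all 18193 genes had a mean of at least 8. Their means over the 6 arrays ran from 8.33 to 11.89 with a median of 10.10, against a median of 6.15 over all genes. By array, induced cultures had member medians of 10.03 (A3), 10.15 (A4) and 10.09 (A5), against 10.12, 10.14 and 10.04 in the uninduced cultures of the same clones. The members thus sat at almost the same height in every culture. The large subunit had a median of 10.21 and the small subunit of 9.98. Levels of different genes rest on different probes, so these orders are orders of signal and not of transcript amount.

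In the large subunit, Mrpl15, at 11.88, 11.95 and 11.85 in induced A3, A4 and A5 and 11.90, 11.94 and 11.80 in uninduced ones, and Mrpl51 (mean 11.82) had the highest signal, followed by Mrpl17 (11.63) and Mrpl42 (11.45). The lowest were Mrpl14 (8.33), the counterpart of a bacterial protein of the subunit interface, Mrpl1 (8.66), the counterpart of the bacterial L1 stalk protein, Mrpl19 (8.67) and Mrpl54 (8.90). In the small subunit, Mrps14 had 11.31, 11.28 and 11.21 in induced and 11.32, 11.32 and 11.28 in uninduced cultures, and Mrps18b, Mrps16 (10.96) and Mrps34 (10.96) came next. The lowest here were Mrps11 (8.89), Mrps27 (8.97), Mrps6 (9.23) and Mrps5 (9.32). Some neighbours in these orders differ by less than the members' own ranges over the 6 arrays, whose median was 0.18. Others differ by more, such as Mrpl14 and Mrpl1 or Mrps27 and Mrps6. Members with a role of their own were Mrpl12, of the stalk that recruits translation factors (11.12), Mrps12, the counterpart of the bacterial decoding protein S12 (10.12), and Mrpl44, which resembles ribonuclease III (9.96). Mrpl58, a peptidyl-tRNA hydrolase that frees stalled ribosomes, had 10.02. Mrps30 (10.34) and Mrps18a (9.62) carry small-subunit symbols but are described in the large subunit, and Mrps36 (9.35) was later described in the 2-oxoglutarate dehydrogenase complex.

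**Figure D1:**
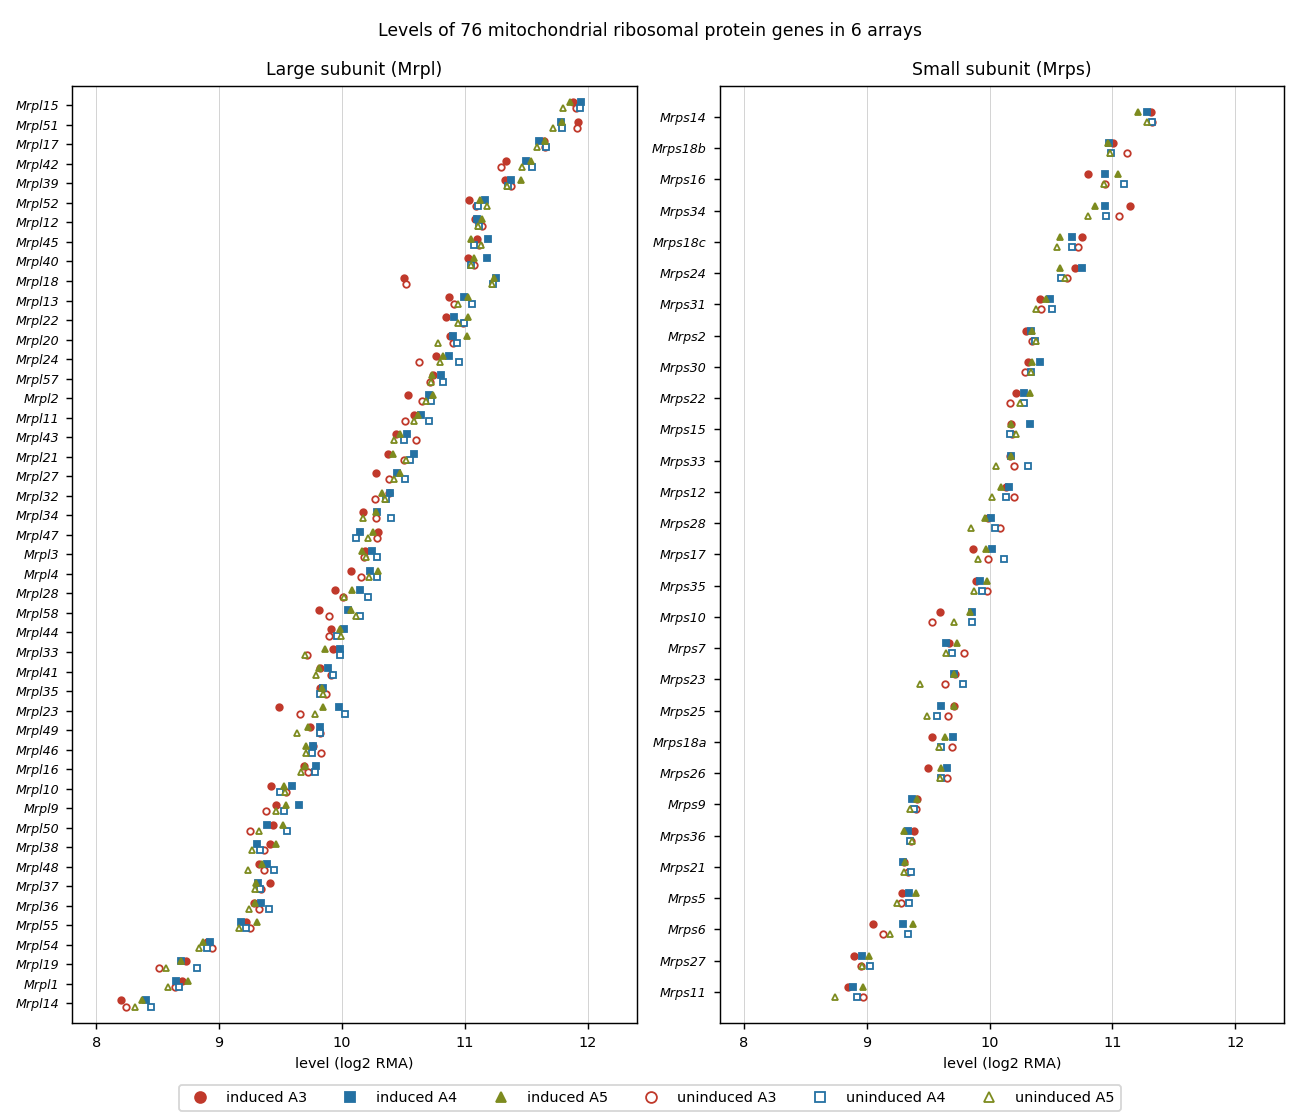
Levels (log2 RMA, x axis) of the 47 large-subunit and 29 small-subunit genes (y axis, ordered by mean) in the 6 arrays, filled for induced and open for uninduced cultures, with 1 symbol and colour per clone. The 6 symbols of a gene lie close together in nearly all rows, and Mrpl18 stands out with both A3 cultures at 10.50 and 10.52, below the other 4.

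Induction was then compared within these levels. With limma, 0 of 76 members passed the threshold (Benjamini-Hochberg adjusted p under 0.05 over all 45037 probe sets), where the background of called probe sets was also 0%, and with the clone as replicate block again 0 of 76 passed, against 0% of all probe sets. At an unadjusted p under 0.05, 0 members passed in limma, 0 with the block and 0 in the methods' t-test, whereas 430 of the 18193 genes did so in limma, 855 with the block and 624 by the test of the methods. Among the 5381 genes with a mean of at least 8, which are nearer to the members in signal, these counts were 8, 64 and 90, so that few calls were to be had at the members' levels. The smallest member p was 0.221 without and 0.138 with the block, both for Mrpl33. Mean differences, induced minus uninduced, ran from -0.07 (Mrpl58) to 0.12 (Mrpl33) on the log2 scale, and 75 of 76 lay within 0.1 of 0. The 95% intervals of all 76 members lay within 1.5-fold in either direction, the outermost bounds being 0.683-fold and 1.48-fold, both of Mrpl18, whose spread between clones is the largest. These intervals, and the SEs of induction differences given below, are from the fit without the block. They take in differences between clones. For Mrpl18 the SE was 0.24 without and 0.07 with the block.

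The members' median difference was 0.01, with an SD of 0.04 between members, against a median of -0.00278 and an SD of 0.09 over all genes. Genes with a mean of at least 8 had a median of 0.00214 and an SD of 0.07. The large subunit had a median of 0.01 with 27 of 47 members higher, and the small subunit 0.01 with 16 of 29 higher. A split by ancestry, chosen after the data had been seen, gave -0.01 for 46 members with a bacterial counterpart and 0.01 for 30 without.

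**Figure D2:**
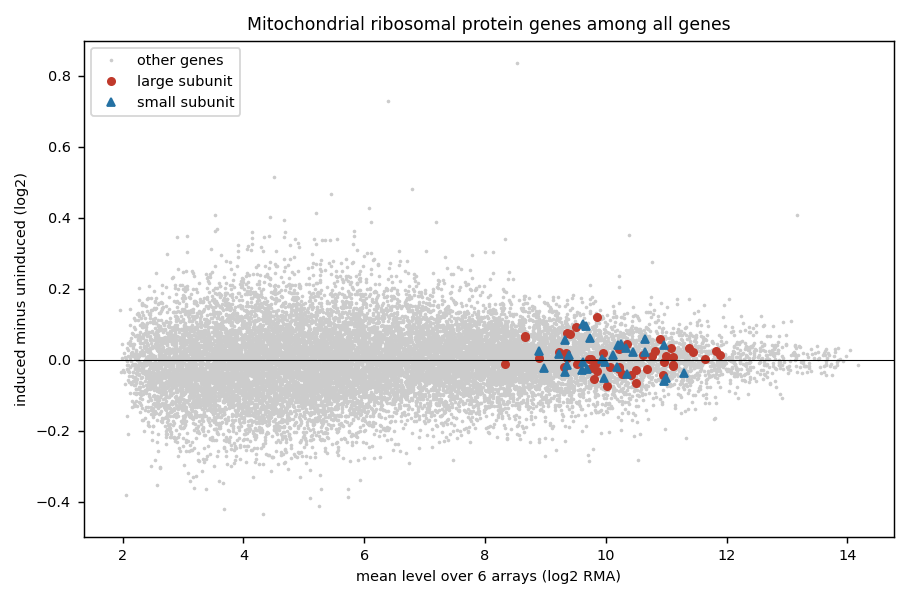
Induced minus uninduced (log2, y axis) against the mean level over 6 arrays (log2 RMA, x axis), 1 point per gene, for 47 large-subunit genes, 29 small-subunit genes and the other genes. Members lie in the upper part of the signal range and between -0.07 and 0.12 on the y axis.

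Within the clones the picture differed by clone. In A3 the members' median difference was -0.03 with 27 of 76 higher, in A4 it was -0.02 with 29 higher, and in A5 it was 0.05 with 60 higher. Genes with a mean of at least 8 had medians of -0.03, 0.01 and 0.03 in the same clones, with 2188, 2857 and 3229 of 5381 higher. Nuclear respiratory chain subunits had -0.04, -0.04 and 0.04, with 22, 22 and 60 of 80 higher. A5 is also the clone with the largest spike differences given above, and their part in the shift was not tested. With 1 pair of arrays per clone the shift itself could not be tested either.

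In all, 8 members were higher and 4 lower in the induced culture of all 3 clones, and 64 had mixed signs. Of all 18193 genes, 2340 were higher and 2427 lower in all 3 clones. Among the 5381 genes with a mean of at least 8 it was 743 and 545. The members' shares were thus not above either background. Mrpl33, a small protein of the large subunit with a bacterial counterpart, had 9.92, 9.98 and 9.86 in induced A3, A4 and A5, against 9.72, 9.98 and 9.70 in uninduced ones. Its groups overlapped because both A4 cultures were at the top, and the difference was 0.12 ± 0.09 (SE, n = 3 per group; limma adjusted p = 1.00). Mrps25, a small-subunit protein found only in mitochondria, had 9.71, 9.60 and 9.71 in induced and 9.66, 9.57 and 9.49 in uninduced cultures, a difference of 0.10 ± 0.08 that came mostly from A5 (0.22). Mrpl9 had 9.46, 9.65 and 9.54 in induced and 9.38, 9.53 and 9.47 in uninduced cultures, and its difference of 0.09 ± 0.08 was nearly even over the clones (0.08, 0.12 and 0.08). Mrps5 (0.05 ± 0.07), Mrps22 (0.04 ± 0.07) and Mrps30 (0.03 ± 0.07) followed, and Mrpl47 and Mrps18c completed the 8, at 0.03 and 0.02. These small differences moved when arrays were left out. That of Mrpl33 ran from 0.07 (without the uninduced A5 array) to 0.21 (without the uninduced A4 array). That of Mrps25 ran from 0.04 (without both A5 arrays) to 0.14. Mrpl9 ran from 0.04 (without the induced A4 array) to 0.14 and Mrps5 from 0.00668 (without both A5 arrays) to 0.08. With 1 array of a clone left out, its partner stays in the other group, so such differences of group means also take in the level of that clone. Within the clones Mrpl33 differed by 0.21 (A3), 0.000335 (A4) and 0.16 (A5).

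The members lower in all 3 clones were Mrpl58, Mrps18b, Mrps2 and Mrps14. Mrpl58 had 9.81, 10.05 and 10.07 in induced cultures, against 9.89, 10.15 and 10.11 in uninduced ones, a difference of -0.07 ± 0.10. Both A3 cultures were lowest, so that the groups overlapped. Mrps18b had 11.01, 10.97 and 10.96 in induced and 11.12, 10.99 and 10.98 in uninduced cultures, a difference of -0.05 ± 0.07, and Mrps14 differed by -0.04 ± 0.07. Mrps2, the counterpart of a bacterial protein needed late in assembly of the small subunit, had 10.30, 10.34 and 10.34 in induced and 10.35, 10.37 and 10.38 in uninduced cultures. It was the only member whose groups did not overlap, 1 of 76 lower and 0 of 76 higher, whereas 4.07% of all genes did so with lower and 3.16% with higher values in the induced group. Its difference was -0.04 ± 0.06 (limma adjusted p = 1.00), and 0 of the 8 and 0 of the 4 members with an even sign passed the test.

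**Figure D3:**
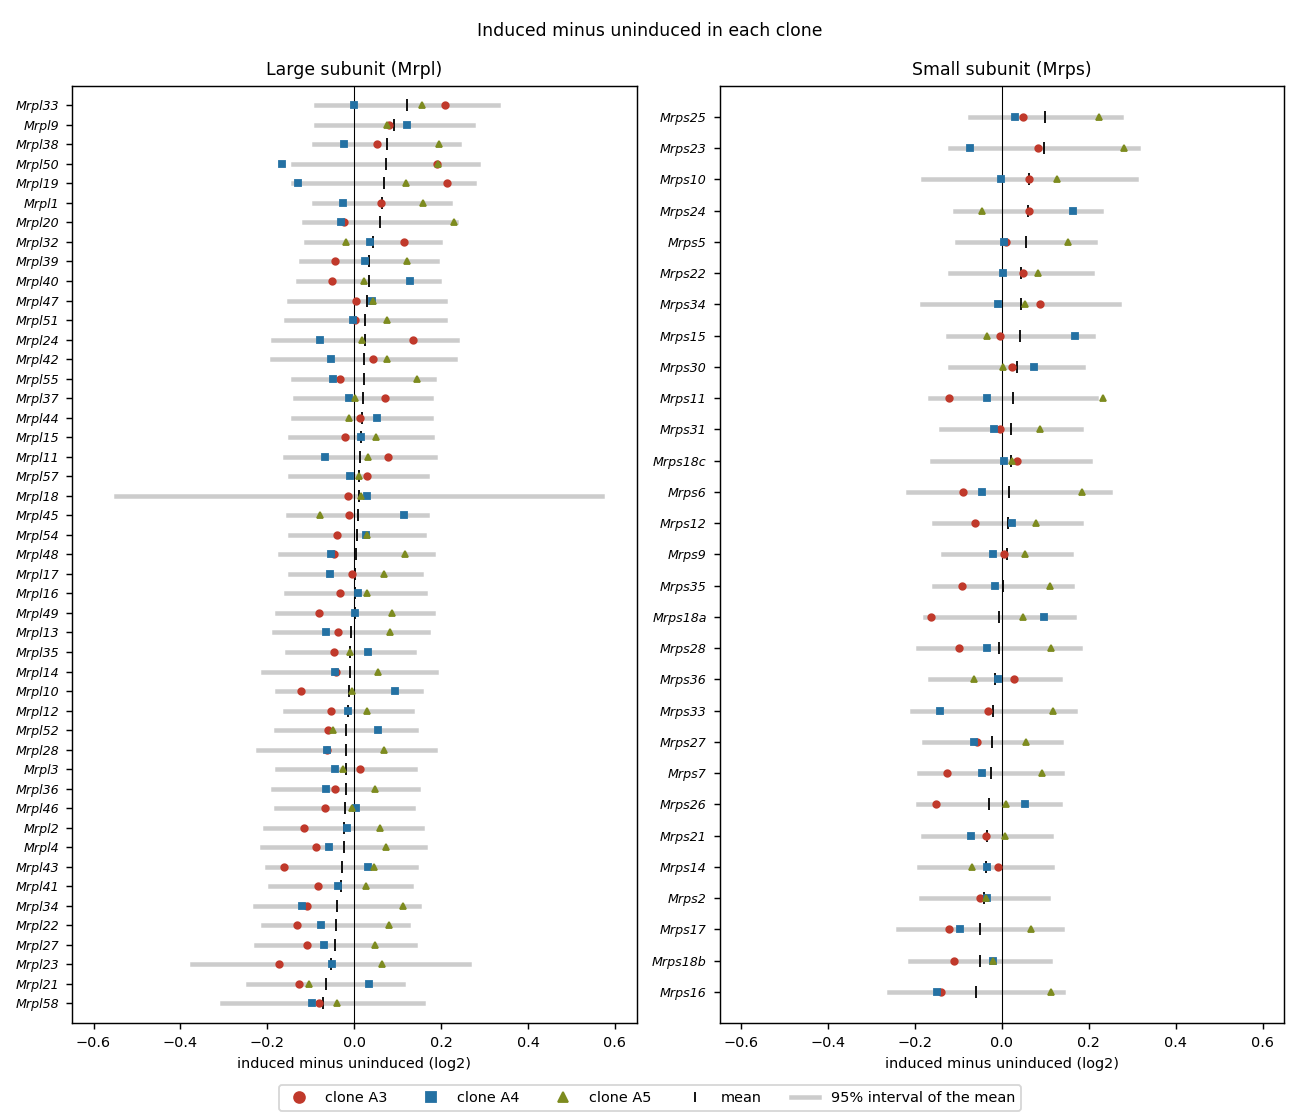
Induced minus uninduced (log2, x axis) for each member (y axis, ordered by mean) in clones A3, A4 and A5, with the mean of the clones as a tick and its 95% interval from limma without the replicate block as a bar. All bars span 0, and the widest is that of Mrpl18, from -0.55 to 0.57.

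Probe sets of the same member did not always share a sign. Mrps25 had differences of -0.16 to 0.15 over 3 probe sets, Mrpl3 -0.19 to 0.05 over 4, Mrpl15 -0.13 to 0.10 over 8 and Mrpl35 -0.06 to 0.17 over 3. The low end belonged to dim probe sets, with a mean of 5.35 in Mrps25, 4.88 in Mrpl3 and 3.82 in Mrpl15, where the probe sets that stand for these genes had 9.62, 10.21 and 11.89. Of all 156 member probe sets, 2 had an unadjusted p under 0.05 in limma without the block and 3 with it, and 0 passed the threshold.

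The genes around the mitochondrial ribosome gave no call either. In each of the following lists limma called 0 genes on induction, with or without the replicate block, and the methods' t-test 0 after adjustment. Of the mitoribosomal proteins under other symbols 5 were measured, with a median difference of -0.00273, among them Dap3 (-0.04 ± 0.07) and the membrane insertase Oxa1l (0.06 ± 0.08). Translation factors of mitochondria had a median of -0.02 over 10 genes, with Mtif2, an initiation factor, at 0.17 ± 0.09 and Mtfmt, which formylates the initiator tRNA, at 0.15 ± 0.07. Assembly and rRNA modification factors had a median of -0.00306 over 21 genes, with Rcc1l at 0.14 ± 0.07. Mitochondrial transcription and RNA handling had 0.04 over 19 genes, 15 of them higher, with Tfb2m, a transcription factor of mitochondria, at 0.13 ± 0.09. Aminoacyl-tRNA synthetases of mitochondria, which load tRNAs with amino acids, had -0.00287 over 21 genes. Of these, 2 had an unadjusted p under 0.05 in limma, the dim Mars2 (0.26 ± 0.08) and Wars2 (0.17 ± 0.07), while the other lists had 0. The regulators of mitochondrial genes had -0.00249 over 11 genes, with Nrf1 at -0.04 ± 0.06 and Gabpb1 at -0.06 ± 0.09. Cytosolic ribosomal proteins had -0.01 over 39 genes and nuclear respiratory chain subunits -0.01 over 80. ND5, a complex I subunit encoded in the mitochondrial genome and so translated by this ribosome, had 9.92, 9.70 and 10.27 in induced and 10.39, 9.82 and 10.06 in uninduced A3, A4 and A5, and its groups overlapped (-0.13 ± 0.17, adjusted p = 1.00).

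The clones themselves were compared next, with the 2 cultures of a clone as its values. A moderated F-test in limma asked whether the 3 clones differ once induction is accounted for, called the clone term here. It was passed by 1 of 76 members, Mrpl18, and by 2.18% of all probe sets. In pairs of clones, 1 of 76 members passed for A3 minus A4 (background 2.94%), 1 for A3 minus A5 (background 1.68%) and 0 for A4 minus A5 (background 0.0511%, limma). For A4 minus A5 the smallest adjusted p of a member was 0.701, that of Mrpl33, and 0 members, against 1370 of all genes, had an unadjusted p under 0.05 in limma. At an unadjusted p under 0.05 of the clone term, 5 members passed (6.58%), against 17.4% of all genes and 18.2% of genes with a mean of at least 8. The median range of the 3 clone means was 0.09 over members, against 0.15 over all genes and 0.14 over genes with a mean of at least 8. The share of called members was thus near or below the background, and the result concerns 1 gene.

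Mrpl18, the counterpart of a bacterial protein that binds 5S rRNA, had 10.50 in the induced and 10.52 in the uninduced A3 culture. The other clones had 11.26 (A4) and 11.24 (A5) when induced and 11.23 (A4) and 11.22 (A5) when uninduced. The A3 cultures lay below all 4 others, and the 2 cultures of each clone were within 0.03 of each other. A3 minus A4 was -0.73 ± 0.08 (SE, n = 2 arrays per clone; limma adjusted p = 0.00462) and A3 minus A5 -0.72 ± 0.08 (adjusted p = 0.00649), whereas A4 minus A5 was 0.01. The F-test gave an unadjusted p of 2.36e-05 and an adjusted p of 0.00603, and the A3 level was 1.65-fold below the mean of the others. The gene has 1 probe set. Without the induced A3 array the A3 minus A4 difference was -0.71 and the adjusted p of the F-test 0.0677, no longer under the threshold, and without any other single array the F-test gave 0.0111 to 0.0443. In pairs of clones without the induced A3 array, 1 member still passed for A3 minus A4 and 0 for A3 minus A5.

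Mrpl23, which lies near the tunnel exit of the large subunit, came next, with 9.49, 9.97 and 9.85 in induced A3, A4 and A5, against 9.66, 10.03 and 9.78 in uninduced ones. A3 minus A4 was -0.43 ± 0.09 (limma adjusted p = 0.0526) and the clone term had an adjusted p of 0.119. Mrps10 averaged 9.56 (A3), 9.86 (A4) and 9.77 (A5), with an adjusted p of 0.238, and Mrpl58 averaged 9.85, 10.10 and 10.09 (adjusted p 0.259). Mrps34, a small-subunit protein found only in mitochondria, ran the other way, with 11.10, 10.95 and 10.83 (adjusted p 0.295). The other members among the first 12, Mrpl42, Mrps6, Mrpl28, Mrpl14, Mrpl24, Mrpl33 and Mrps18c, had adjusted p of 0.391 to 0.529. In 10 of these 12 members the A3 mean lay below that of A4. Over all members, A3 had the lowest mean in 37 of 76 (48.7%, against 41% of all genes and 36.1% of genes with a mean of at least 8), A5 in 30 (4665 of 18193 and 1308 of 5381 genes) and A4 in 9. A4 had the highest mean in 47 (61.8%, against 35.4% and 31.7%). With an intensity trend in the variance model 5 members passed the clone term, Mrpl18, Mrpl23, Mrps10, Mrpl58 and Mrps34. With a filter at a mean of at least 5 there were 2, Mrpl18 and Mrpl23. The share of all probe sets called under either setting is not given here, so these counts cannot be set against a background.

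**Figure D4:**
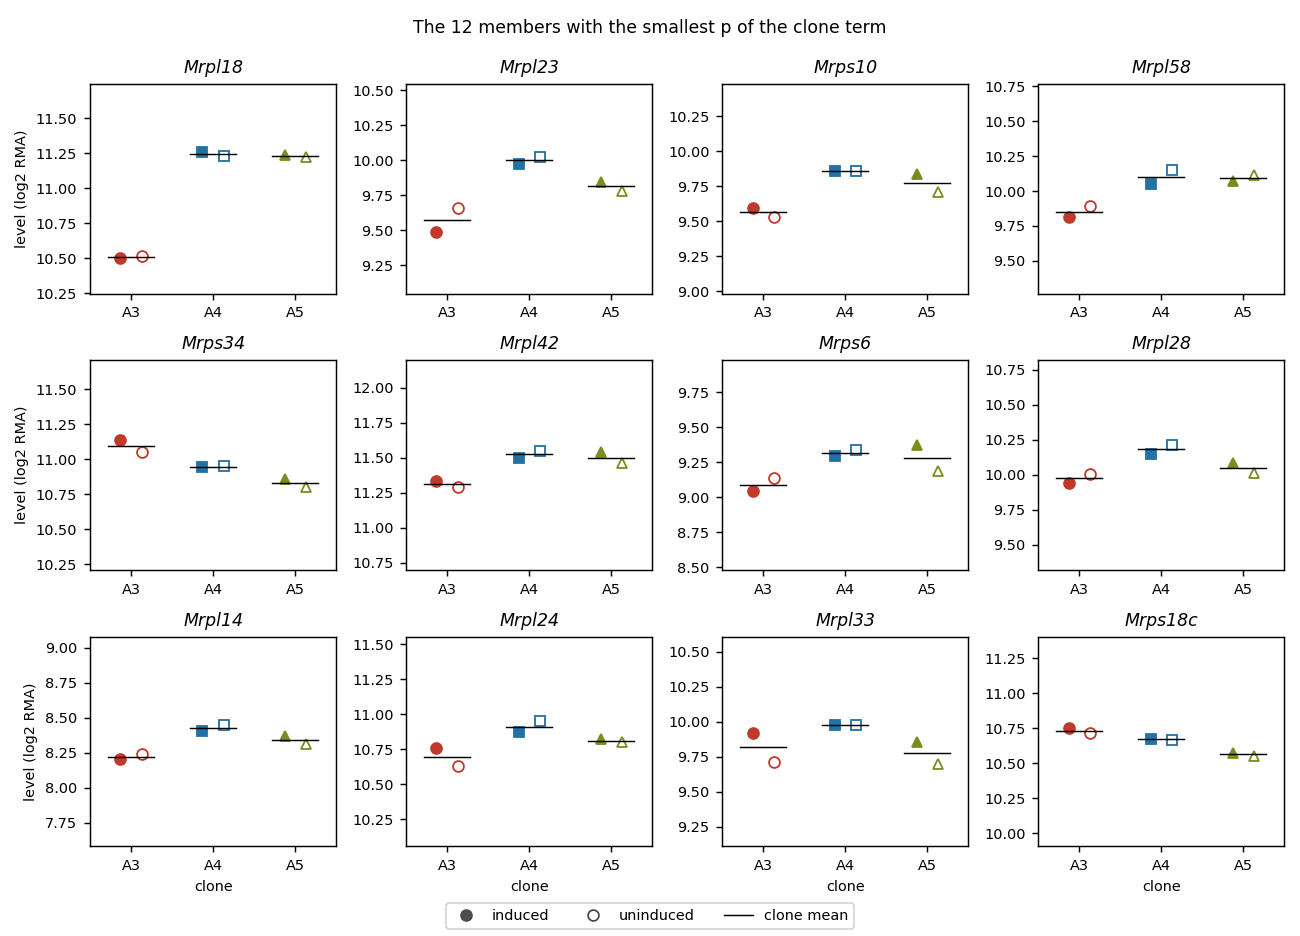
Levels (log2 RMA, y axis, each panel 1.5 units tall) of the 12 members with the smallest p of the clone term in clones A3, A4 and A5 (x axis), induced cultures filled and uninduced ones open, with the clone mean as a line. In Mrpl18 both A3 cultures lie below all others and the A3 mean lies 0.73 below that of A4, and in the other members the clones lie closer together.

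Mrpl18 lies on chromosome 17, and its neighbours there were examined by their order in the RefSeq gene table, counting genes with a mean of at least 6. Of the 10 measured genes on each side, 12 of 20 passed the clone term and 17 were lower in A3, with a median of -0.54 for A3 minus the mean of A4 and A5. For the other 75 members at most 3 of the 20 nearest genes passed (Mrps35), and the medians of their neighbours ran from -0.07 to 0.16. Mrpl18 was therefore the only member whose neighbourhood differed between clones to this extent.

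The low A3 values formed a stretch of 31 consecutive measured genes, 5 before and 25 after Mrpl18, from Qk to Zfp995. All 31 were lower in A3, 27 passed the clone term, and the median was -0.68, with a range of -1.16 to -0.03. The stretch was delimited after the values had been seen, by extension from Mrpl18 through genes low in A3, with single exceptions allowed. Its low values and its contrast with the rest of the chromosome follow partly from that choice, and it therefore has no test. Tcp1, which encodes a subunit of the cytosolic chaperonin and starts head to head with Mrpl18, had 11.93 in induced and 12.04 in uninduced A3, against 12.66 and 12.61 in A4 and 12.73 and 12.65 in A5. The clone term of Tcp1 had an adjusted p of 0.0107 (limma F-test). Its A3 minus the mean of A4 and A5, at -0.68, was near that of Mrpl18, at -0.73, and was also the median of the stretch. Among the 25 head-to-head partners of members Tcp1 was the only 1 called, where the clone term called 3.09% of all genes. The other partners ran from -0.18 to 0.39.

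The stretch holds other housekeeping genes. Phf10, a subunit of a chromatin remodelling complex, was lower in A3 by 2.00-fold (9.62, against 10.60 in A4 and 10.65 in A5), Psmb1, a proteasome subunit, by 1.84-fold, Sod2, the superoxide dismutase of mitochondria, by 1.59-fold, and Tbp, the TATA-binding protein, differed by -0.80. Igf2r, an imprinted receptor, differed by -0.95 and the RNA methylation factor Wtap by -0.89. Genes with little change were Dll1 (-0.06) and Has1 (-0.03), both dim, at 6.70 and 6.09. Outside the stretch, 13 of 446 measured genes of chromosome 17 passed and the median was -0.01. The 7 other members on this chromosome, Mrps34, Mrpl28, Mrps18b, Mrpl14, Mrps18a, Mrpl2 and Mrps10, lie outside, differed by -0.25 to 0.21 and did not pass. Without the induced A3 array 10 of the 31 genes passed, without the uninduced A3 array 15, and the median stayed at -0.67 and -0.69. The trophoblast markers Tfap2c (8.32 in A3, 9.42 in A4, 9.10 in A5) and Eomes (6.01, 6.88 and 6.64) also passed with their lowest values in A3, and the medians of that list were 5.44 (A3), 6.06 (A4) and 5.86 (A5) when induced, against 5.52, 6.00 and 5.89 when uninduced. Single genes of other marker lists passed too, Fgf4 of the ES cell markers, highest in A3 (10.16, with 9.65 and 9.69 in the other clones), and the dim primitive endoderm marker Dab2 (4.99, 4.90 and 5.40), and 0 of the 8 fibroblast and feeder markers did. The median of A3 minus the mean of A4 and A5 was -0.23 for the trophoblast, -0.12 for the primitive endoderm, -0.08 for the ES cell and -0.02 for the fibroblast list. The part of these markers, or of the poly-A spikes (5.96 and 5.72 in A3, 5.34 to 5.68 in the other 4 arrays), in the A3 values was not tested.

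**Figure D5:**
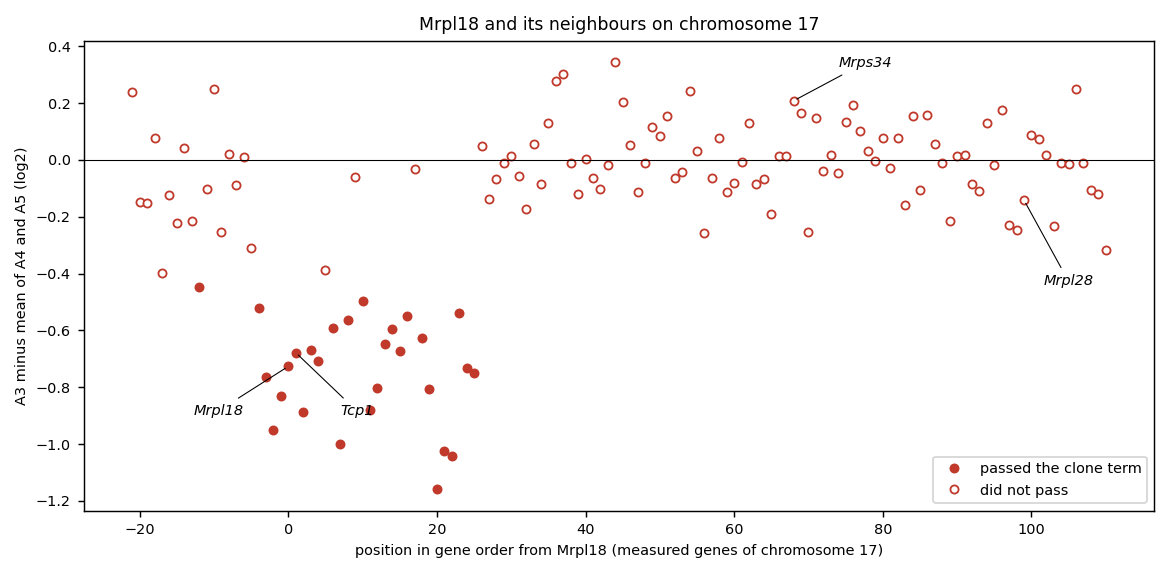
Difference of A3 from the mean of A4 and A5 (log2, y axis) for measured genes of chromosome 17 in their order along the chromosome, counted from Mrpl18 at 0 (x axis). Filled points passed the clone term, and from Qk at -5 to Zfp995 at 25 all 31 genes lie below 0 with a median of -0.68, while Mrps34 and Mrpl28 lie outside at 0.21 and -0.14.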

How the data were processed

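The 6 arrays (Affymetrix GeneChip Mouse Genome 430 2.0) were analysed from the deposited log2 values, which the authors made per probe set by RMA in the affy package of Bioconductor (background correction, quantile normalization, summarization). Versions and the arrays normalized together are not given in the sources used here. Of 45101 probe sets, 64 controls were set aside and 45037 tested without a filter. Groups and clones came from the sample titles. Members and lists were chosen with earlier results of these data known. Induced and uninduced cultures were compared with limma 3.58.1 in R 4.3.3 (two-sided, Benjamini-Hochberg, threshold 0.05), without a block since the methods name no pairing. The clone pairs the cultures: after removal of group means, arrays of 1 clone correlated at 0.524, 0.376 and 0.210. Clones were tested by limma's F-test with induction in the model and in pairs. Named genes are members past a threshold, those with 1 sign in all clones (up to 6 per direction), the 12 smallest p of the clone term, the 4 highest and lowest levels per subunit, the 4 with the most discordant probe sets, members with a role of their own, and up to 3 genes per list. The stretch on chromosome 17 and its genes were picked with their values known. The number of arrays limits the precision. Sequences are RefSeq's (GRCm38.p6). The RefSeq gene table gave only the order of genes along chromosomes, since the array's build is not named, and printed coordinates and distances between starts are those of RefSeq's promoter windows. The pipeline was tested on simulated data. Arrays simulated for the induction comparison held no differences between clones. They cannot show how that comparison behaves on cultures paired by clone.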

Additional observations from a re-analysis of the deposited data

Results flagged for a closer look

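The members' median difference on induction, induced minus uninduced, did not have the same sign in the 3 clones. It was -0.0345 in A3 (27 of 76 members higher), -0.0173 in A4 (29 higher) and 0.0541 in A5 (60 higher). Of the 5381 genes with a mean of at least 8, 2188, 2857 and 3229 were higher in A3, A4 and A5. Of the 80 nuclear respiratory chain subunits 22, 22 and 60 were higher, so the pattern is not particular to the members. With 1 pair of arrays per clone the difference between clones was not tested.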

How the results depend on the processing

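The number of members called on induction stayed at 0 under all alternatives run. These included the clone as replicate block (0), the methods' t-test and an intensity trend. The block entered only the induction comparison, so it could not change the calls between clones. Medians of the difference stayed within 1 SD of the clones' medians, at -0.02 to 0.03 over all members with arrays left out. Members called by the clone term were 2 with a filter at a mean of at least 5, 5 with an intensity trend and 0 to 2 with arrays left out (0 without the induced A3 array or both A3 arrays, 2 without both A5 arrays). For A3 minus A4, with alternatives chosen after the data had been seen, 3 were called with the filter, 2 after quantile normalization was repeated, 2 with the mean of all probe sets of a gene, 5 with the trend and 1 to 2 with arrays left out. For A3 minus A5 it was 3 with the trend and 0 to 1 with arrays left out (0 without the induced A3 or the induced A5 array). Called genes in the chromosome 17 stretch numbered 0 to 27 with arrays left out, 0 being the value without both A3 arrays. The share of all probe sets called under these alternatives is not given here, so the member counts have no background beside them. With the mean of all probe sets the median level was 9.15, with 9.06 in the large and 9.46 in the small subunit. Of single members, Mrps5 turned to -0.00439 on induction with the mean of all probe sets. Mrpl58 ran from -0.15 to 0.0104 with arrays left out, the highest without the induced A3 array. There the low uninduced A3 culture (9.89) stayed in its group without its partner. Within the clones Mrpl58 differed by -0.08 (A3), -0.10 (A4) and -0.04 (A5). The causes of the other changes were not tested. Where an array was left out, the lone culture of its clone is assumed to vary like the others, and the induction difference is that of group means.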
